A study of Mus musculus with 4 samples.

Results

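The genes described here encode 9 enzymes that bring pyruvate into the mitochondrial tricarboxylic acid (TCA) cycle or turn the cycle: Pdha1, Pcx, Cs, Idh2, Idh3a, Ogdh, Suclg1, Fh1 and Mdh2. They were taken by symbol, and each matched 1 of the 37620 rows of the gene count table. RNA was sequenced from mouse embryonic stem cells (mESCs) with 2 libraries of WT_CTCF and 2 of MUT_CTCF cells. Both lines were made from mESCs whose endogenous CTCF carries a degron tag and is degraded with auxin, and both carry a transfected vector for exogenous CTCF. In WT_CTCF cells the vector encodes wild-type CTCF, and in MUT_CTCF cells it encodes CTCF with alanine in place of the threonine at T668, which cannot carry O-GlcNAc there. Each line was taken as a clone with exogenous CTCF near the endogenous level, so the mutation and the clone cannot be told apart. All cells were grown on gelatin with 15% serum, LIF at 1000 U/mL and 2 mM glutamine. The study's methods call the 2 libraries of a line biological replicates, and how the cultures were kept apart is not given in the sources used here.

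Pyruvate enters the cycle by separate routes. The pyruvate dehydrogenase complex, whose catalytic alpha subunit is encoded by Pdha1, makes acetyl-CoA, and pyruvate carboxylase, encoded by Pcx, makes oxaloacetate. The cycle then oxidises the acetyl group and yields NADH, FADH2 and intermediates for biosynthesis. Pyruvate that does not enter mitochondria can be reduced to lactate by lactate dehydrogenase. Mouse ESCs in serum with LIF use both glycolysis and mitochondrial oxidation, and alpha-ketoglutarate from the cycle is a substrate of their demethylases.

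WT_CTCF replicates 1 and 2 held 40977464 and 40824156 counts in total, and MUT_CTCF replicates 1 and 2 held 40899401 and 40524694. The 9 genes together took 0.236% and 0.237% of all counts in WT_CTCF replicates 1 and 2, and 0.236% and 0.235% in MUT_CTCF replicates 1 and 2. Levels are given as CPM, which are counts relative to a library's total after scaling by edgeR's TMM method. Differences are log2 fold changes of MUT_CTCF over WT_CTCF from edgeR's quasi-likelihood test, and a gene was called at an adjusted p under 0.05. The mean levels of the 12 mESC marker genes ran from 19.6 CPM for Dppa3 to 1423 CPM for Nanog in WT_CTCF. In MUT_CTCF they ran from 18.6 to 1463 CPM for the same genes. All 12 had enough counts to be tested, but so had all 6 trophoblast markers, so being tested does not by itself mark a cell type.

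None of the 9 genes was called by edgeR's quasi-likelihood test, 0 higher and 0 lower, where 1.56% of the 16264 tested genes were called higher and 1.61% lower, or 3.17% in either direction. DESeq2 and edgeR's exact test also called 0 of the 9. At an unadjusted p under 0.05, 4 of the 9 passed in the quasi-likelihood test, 3 in DESeq2 and 3 in the exact test, beside 15.3% of all tested genes in the first. The 9 genes are well expressed, and among the 4054 tested genes at or above the level of Pcx, the lowest of them, 7.57% were called and 26.3% had an unadjusted p under 0.05. By the study's criterion, which asks for more than a 2-fold change and an unadjusted p under 0.05, none of the 9 passed, beside 1.30% of tested genes. The log2 fold changes ran from -0.11 to 0.15 with a median of -0.0074, against a median of 0.0034 over all tested genes and -0.019 over those at or above the level of Pcx. The median size of the difference was 0.063 for the 9 genes, 0.106 for all tested genes and 0.050 for those at or above the level of Pcx. The 95% intervals of all 9 differences lay between -0.20 and 0.24 on the log2 scale. With scaling by library size alone, the calls over all genes moved from 253 higher and 262 lower to 260 higher and 152 lower.

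**Figure D1:**
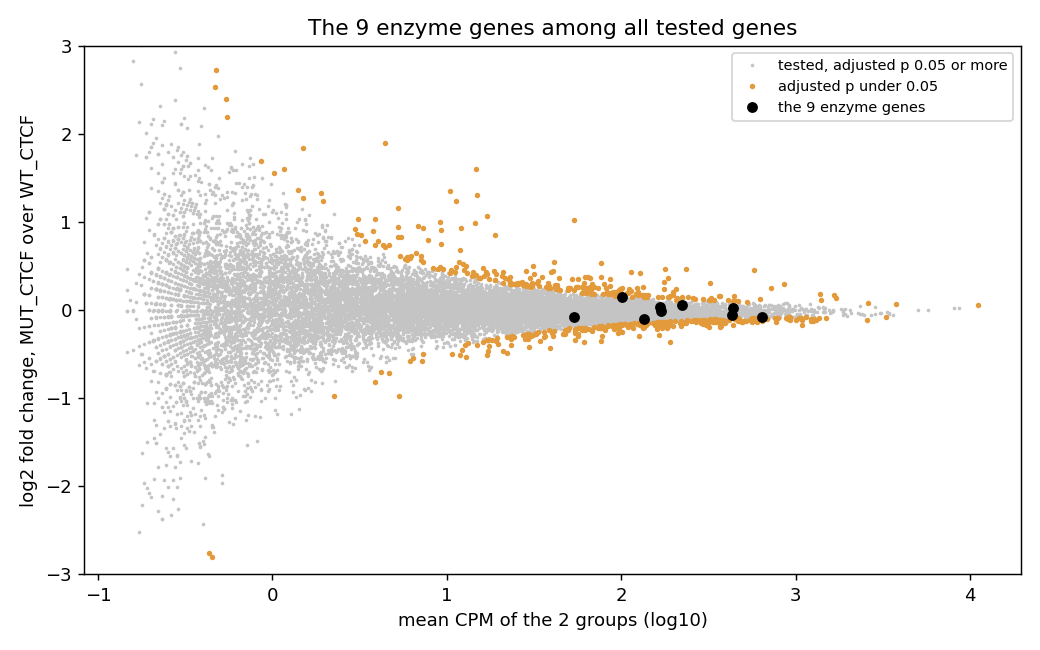
The log2 fold change of each tested gene (y axis) is plotted against the mean CPM of the groups (x axis, log10), with genes called at an adjusted p under 0.05 in orange and the 9 enzyme genes in black. The 9 genes lie between -0.11 and 0.15, and 5 tested genes fall outside the plotted range.

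Idh3a had the smallest p of the 9. It encodes the catalytic alpha subunit of the NAD-dependent isocitrate dehydrogenase, which makes alpha-ketoglutarate. Its level was 95.9 and 96.6 CPM in WT_CTCF replicates 1 and 2, and 107.3 and 106.0 CPM in MUT_CTCF replicates 1 and 2. MUT_CTCF was higher in each library than either WT_CTCF library. The log2 fold change was 0.15 (standard error, SE, 0.046, with a 95% interval of 0.056 to 0.24), with an adjusted p of 0.0590 in edgeR's quasi-likelihood test. The adjusted p of Idh3a came below 0.05 in 3 of 11 alternatives, with values of 0.0427 under library size scaling, 0.0383 with at least 10 reads in every library and 0.0348 with the replicate block, and over all 11 it ran from 0.0348 to 0.419. The enzyme also needs a beta and a gamma subunit. Idh3b, the beta subunit gene, had 131.0 and 128.4 CPM in WT_CTCF and 124.2 and 132.1 CPM in MUT_CTCF, and its groups overlapped. Idh3g, the gamma subunit gene, had 221.6 and 218.8 CPM in WT_CTCF and 215.8 and 223.0 CPM in MUT_CTCF, and its groups overlapped too. Their log2 fold changes were -0.017 and -0.0054, and both had the opposite sign in at least 1 alternative.

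The other genes of the early steps had differences closer to 0. Cs encodes citrate synthase, which joins acetyl-CoA to oxaloacetate. It had 442.9 and 443.3 CPM in WT_CTCF and 431.8 and 419.4 CPM in MUT_CTCF, with both MUT_CTCF libraries below both WT_CTCF libraries. Its log2 fold change was -0.058 (SE 0.029), with an adjusted p of 0.323 in edgeR's test. Idh2, which encodes the NADP-dependent mitochondrial isocitrate dehydrogenase, had 169.1 and 158.7 CPM in WT_CTCF and 166.2 and 169.1 CPM in MUT_CTCF. The groups overlapped, and the log2 fold change was 0.033 (SE 0.039), with an adjusted p of 0.778 in edgeR's test. Ogdh encodes the E1 subunit of the alpha-ketoglutarate dehydrogenase complex. It had 434.1 and 432.7 CPM in WT_CTCF and 440.5 and 443.4 CPM in MUT_CTCF, without overlap, and a log2 fold change of 0.028 (SE 0.028), with an adjusted p of 0.720 in edgeR's test.

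In the later steps, Suclg1 and Mdh2 had the most negative log2 fold changes of the 9 genes. Pcx, at pyruvate entry, was close to Mdh2 (-0.073 against -0.075). Their order depended on the library left out, with -0.12 against -0.071 without WT_CTCF replicate 1 and -0.021 against -0.078 without WT_CTCF replicate 2. Suclg1 encodes the alpha subunit of succinyl-CoA synthetase. It had 134.6 and 144.4 CPM in WT_CTCF and 130.5 and 128.7 CPM in MUT_CTCF, without overlap, although the WT_CTCF libraries differed from each other by more than WT_CTCF replicate 1 differed from MUT_CTCF. Its log2 fold change was -0.11 (SE 0.042, adjusted p of 0.187 in edgeR's test), and -0.054 without WT_CTCF replicate 2. Fh1, which encodes fumarate hydratase, had 215.8 and 219.1 CPM in WT_CTCF and 224.2 and 230.0 CPM in MUT_CTCF, with both MUT_CTCF libraries higher. Its log2 fold change was 0.063 (SE 0.035, adjusted p of 0.401 in edgeR's test). Mdh2 encodes the mitochondrial malate dehydrogenase. It had 659.4 and 656.0 CPM in WT_CTCF and 620.5 and 628.6 CPM in MUT_CTCF, with both MUT_CTCF libraries lower. Its log2 fold change was -0.075 (SE 0.026, adjusted p of 0.109 in edgeR's test).

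At pyruvate entry the groups overlapped for both genes. Pdha1 had 169.6 and 167.8 CPM in WT_CTCF and 171.7 and 164.0 CPM in MUT_CTCF. Its log2 fold change was -0.0074 (SE 0.038, adjusted p of 0.961 in edgeR's test), with a 95% interval of -0.084 to 0.069. Pcx had 52.7 and 56.7 CPM in WT_CTCF and 50.4 and 53.6 CPM in MUT_CTCF, and a log2 fold change of -0.073 (SE 0.061, adjusted p of 0.642 in edgeR's test), which moved to -0.021 when WT_CTCF replicate 2 was left out, to -0.029 when MUT_CTCF replicate 1 was, and to -0.12 when the other replicate of either line was. Over all 9 genes, the libraries of the groups did not overlap for 6: Idh3a, Fh1 and Ogdh with MUT_CTCF higher, and Cs, Mdh2 and Suclg1 with MUT_CTCF lower. Among all tested genes 44.7% did not overlap, and 55.0% of those at or above the level of Pcx.

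**Figure D2:**
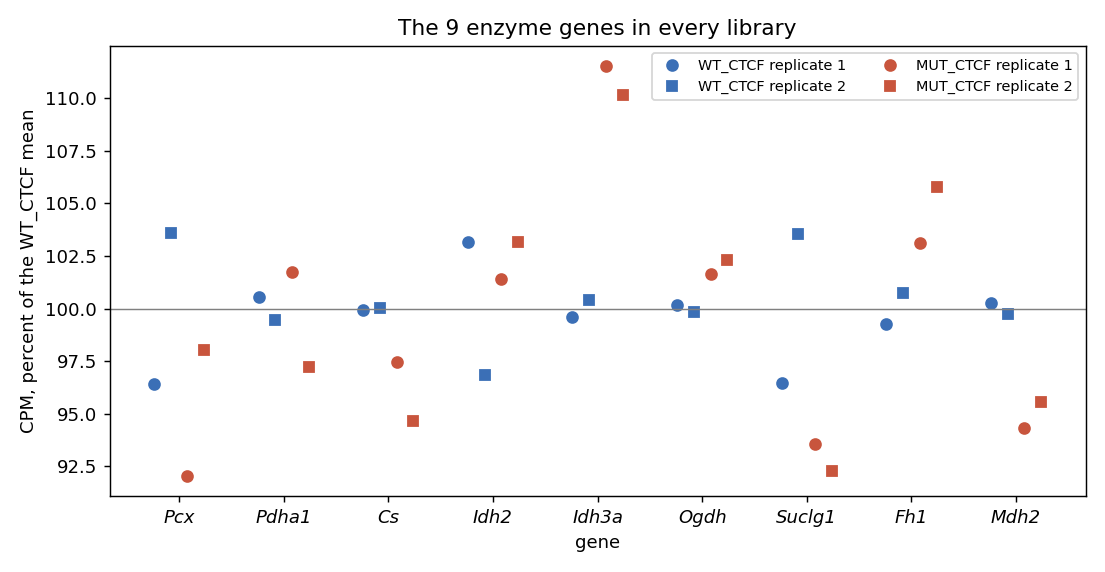
CPM of each of the 9 genes (x axis) in every library as a percent of its WT_CTCF mean (y axis, not starting at 0), with WT_CTCF in blue, MUT_CTCF in red, replicate 1 as circles and replicate 2 as squares. The groups separate without overlap for Cs, Idh3a, Ogdh, Suclg1, Fh1 and Mdh2.

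The genes lie on 9 chromosomes of mm9. Pdha1 spans chrX:156560141-156576345 on the minus strand, and Idh3a spans chr9:54434288-54452468 on the plus strand. Of the merged exon positions of Pdha1, 16.0% are shared with Map3k15 on the opposite strand, and no source used here gives the strand of counting, so reads of the pair cannot be told apart there. The other 8 genes share no exon position with another annotated gene. Stretches of at least 200 bases with at least 90% identity occur elsewhere in the genome for Cs, with 2 matches of up to 548 bases, and for Pdha1, with 1 match of 405 bases. For these genes the count of uniquely mapped reads is less certain. The other 7 had no such match in their longest annotated coding transcript, the only sequence of each gene that was searched. That of Suclg1 has 1519 bases, against 4617 in its merged exons.

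Levels between genes were compared per length, as CPM per kilobase of merged exons. In WT_CTCF the order was Mdh2 at 314.9 ± 1.15 (SD, n = 2), Cs at 156.7 ± 0.102, Ogdh at 79.4 ± 0.180, Fh1 at 64.1 ± 0.685, Idh2 at 63.3 ± 2.83, Pdha1 at 44.7 ± 0.335, Idh3a at 38.1 ± 0.220, Suclg1 at 30.2 ± 1.51 and Pcx at 12.8 ± 0.649. Per kilobase of merged exons, the order of the means in MUT_CTCF was the same, from Mdh2 at 299.0 ± 2.75 to Pcx at 12.2 ± 0.541. Below Ogdh and above Pcx the order depends on the length used. The merged exons of Suclg1 have 4617 bases and its longest annotated coding transcript 1519. Per kilobase of that transcript, a setting added after seeing the data, Suclg1 was at 91.8 ± 4.59 in WT_CTCF, with Idh2 at 91.6 ± 4.09, Fh1 at 82.5 ± 0.881, Pdha1 at 59.2 ± 0.444 and Idh3a at 40.1 ± 0.231, while Mdh2, Cs and Ogdh stayed the highest 3 and Pcx the lowest. By transcript length in MUT_CTCF, Idh2 was at 93.7 ± 1.15, Fh1 at 86.2 ± 1.57 and Suclg1 at 85.3 ± 0.840. Suclg1 therefore ranked 4 in WT_CTCF and 6 in MUT_CTCF by that length. Idh3b in WT_CTCF was at 37.9 ± 0.543 per kilobase of merged exons and at 80.2 ± 1.15 per kilobase of its longest transcript.

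**Figure D3:**
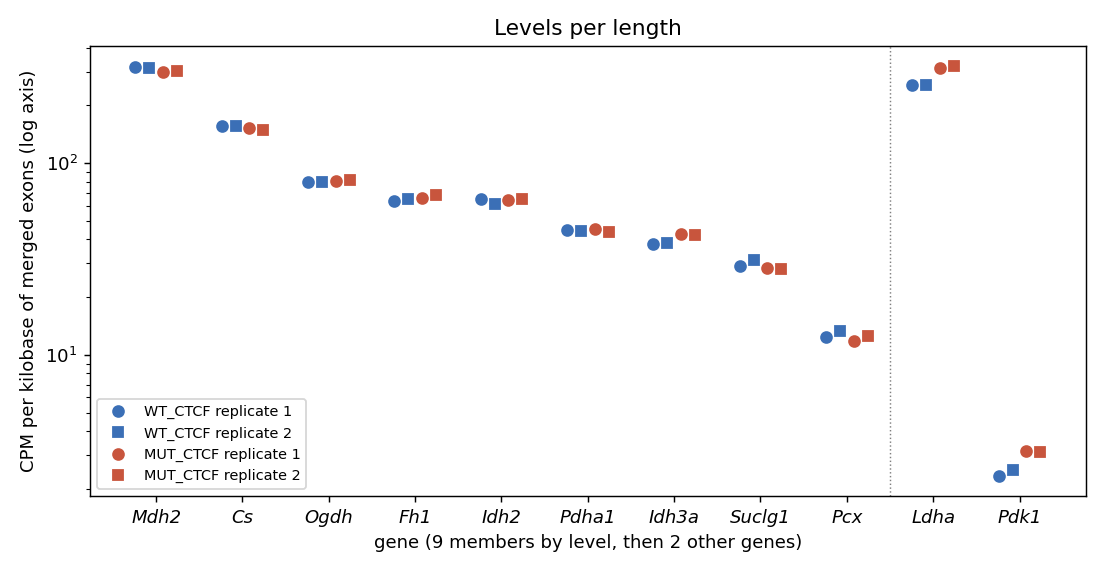
CPM per kilobase of merged exons (log axis) in every library for the 9 genes by level, then for Ldha and Pdk1, with WT_CTCF in blue and MUT_CTCF in red. The 9 genes run from Mdh2 at 314.9 down to Pcx at 12.8 in WT_CTCF, and Ldha and Pdk1 are higher in both MUT_CTCF libraries.

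Ratios of the levels per kilobase of merged exons were formed for 6 pairs. Their size depends on the lengths used, while the comparison between groups does not. The ratio of Idh3a to Idh3b was 0.991 and 1.02 in WT_CTCF replicates 1 and 2, and 1.17 and 1.09 in MUT_CTCF replicates 1 and 2. The ratio of Suclg1 to Suclg2, its GTP-forming beta partner, was 0.952 and 1.14 in WT_CTCF and 0.893 and 0.888 in MUT_CTCF. The ratio of Pdk1 to Pdha1 was 0.0520 and 0.0561 in WT_CTCF and 0.0688 and 0.0713 in MUT_CTCF. The two-sided exact permutation p was 0.333 for each, which is the smallest that 2 libraries against 2 can give, and the genes on top of the ratios (Idh3a, Suclg1, Pdk1 and Ldha) were already known to differ without overlap when the pairs were chosen.

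Of 38 other genes of the pathway, 37 were tested, and edgeR's test called 2 higher and 1 lower, beside 3.17% of all tested genes in either direction and 7.57% at or above the level of Pcx. An unadjusted p under 0.05 was found for 10 of the 37, beside 15.3% and 26.3%. Their median log2 fold change was -0.0094. DESeq2 and edgeR's exact test also called 2 higher and 1 lower. An unadjusted p under 0.05 was found for 7 of the 37 in DESeq2 and for 8 in the exact test. DESeq2 gave no adjusted p for 4 of the 37. None of the 10 other TCA cycle enzyme genes was called by edgeR's quasi-likelihood test, its exact test or DESeq2, and 2 had an unadjusted p under 0.05 in each. None of the 4 other pyruvate dehydrogenase complex genes was called by these tools, and 0 had an unadjusted p under 0.05. Mpc1 and Mpc2, the pyruvate carrier genes, had log2 fold changes of -0.11 and 0.093 at low levels. Of the 7 kinase and phosphatase genes of the pyruvate dehydrogenase complex, each of these tools called 1 higher and 0 lower. An unadjusted p under 0.05 was found for 2 of the 7 in both edgeR tests and for 1 in DESeq2, which gave no adjusted p for 3.

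Among the kinase genes of the pyruvate dehydrogenase complex, Pdk3 was the most abundant, at 46.2 and 44.0 CPM in WT_CTCF and 50.4 and 47.8 CPM in MUT_CTCF. Its log2 fold change was 0.12 (adjusted p of 0.353 in edgeR's test). The phosphatase gene Pdp1 was at 0.60 on few counts, with groups that overlapped (adjusted p of 0.199 in edgeR's test). Pdk1, a kinase that inactivates the complex by phosphorylating the protein of Pdha1, was higher in MUT_CTCF. It had 18.2 and 19.4 CPM in WT_CTCF and 24.4 and 24.1 CPM in MUT_CTCF, without overlap. Pdk1 rose by 0.37 on the log2 scale (SE 0.090, adjusted p of 0.0110 in edgeR's test). The call was lost without WT_CTCF replicate 1 (adjusted p of 0.165), without MUT_CTCF replicate 1 (0.383), without MUT_CTCF replicate 2 (0.357) and with no filter on low counts (0.210), while the log2 fold change stayed between 0.32 and 0.41 in all 11 alternatives. Over all genes 515 were called in the main fit, 199 and 244 without WT_CTCF replicate 1 or 2, 6 without either MUT_CTCF replicate and 29 with no filter. Pck2, the mitochondrial enzyme that turns oxaloacetate into phosphoenolpyruvate, had 39.2 and 37.9 CPM in WT_CTCF and 46.3 and 47.7 CPM in MUT_CTCF. Pck2 rose by 0.29 (SE 0.066, adjusted p of 0.00633 in edgeR's test), and it was not called without WT_CTCF replicate 2 (0.0907), MUT_CTCF replicate 1 (0.317) or MUT_CTCF replicate 2 (0.358), or with no filter (0.186), at log2 fold changes of 0.26 to 0.31 over all alternatives. Idh1, the cytosolic counterpart of Idh2, had 389.4 and 390.5 CPM in WT_CTCF and 365.3 and 350.7 CPM in MUT_CTCF. Idh1 fell by 0.12 on the log2 scale (SE 0.030, adjusted p of 0.0100 in edgeR's test), and was not called without any 1 of the 4 libraries (0.118 to 0.369) or with no filter (0.226), at -0.15 to -0.096 over all alternatives.

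**Figure D4:**
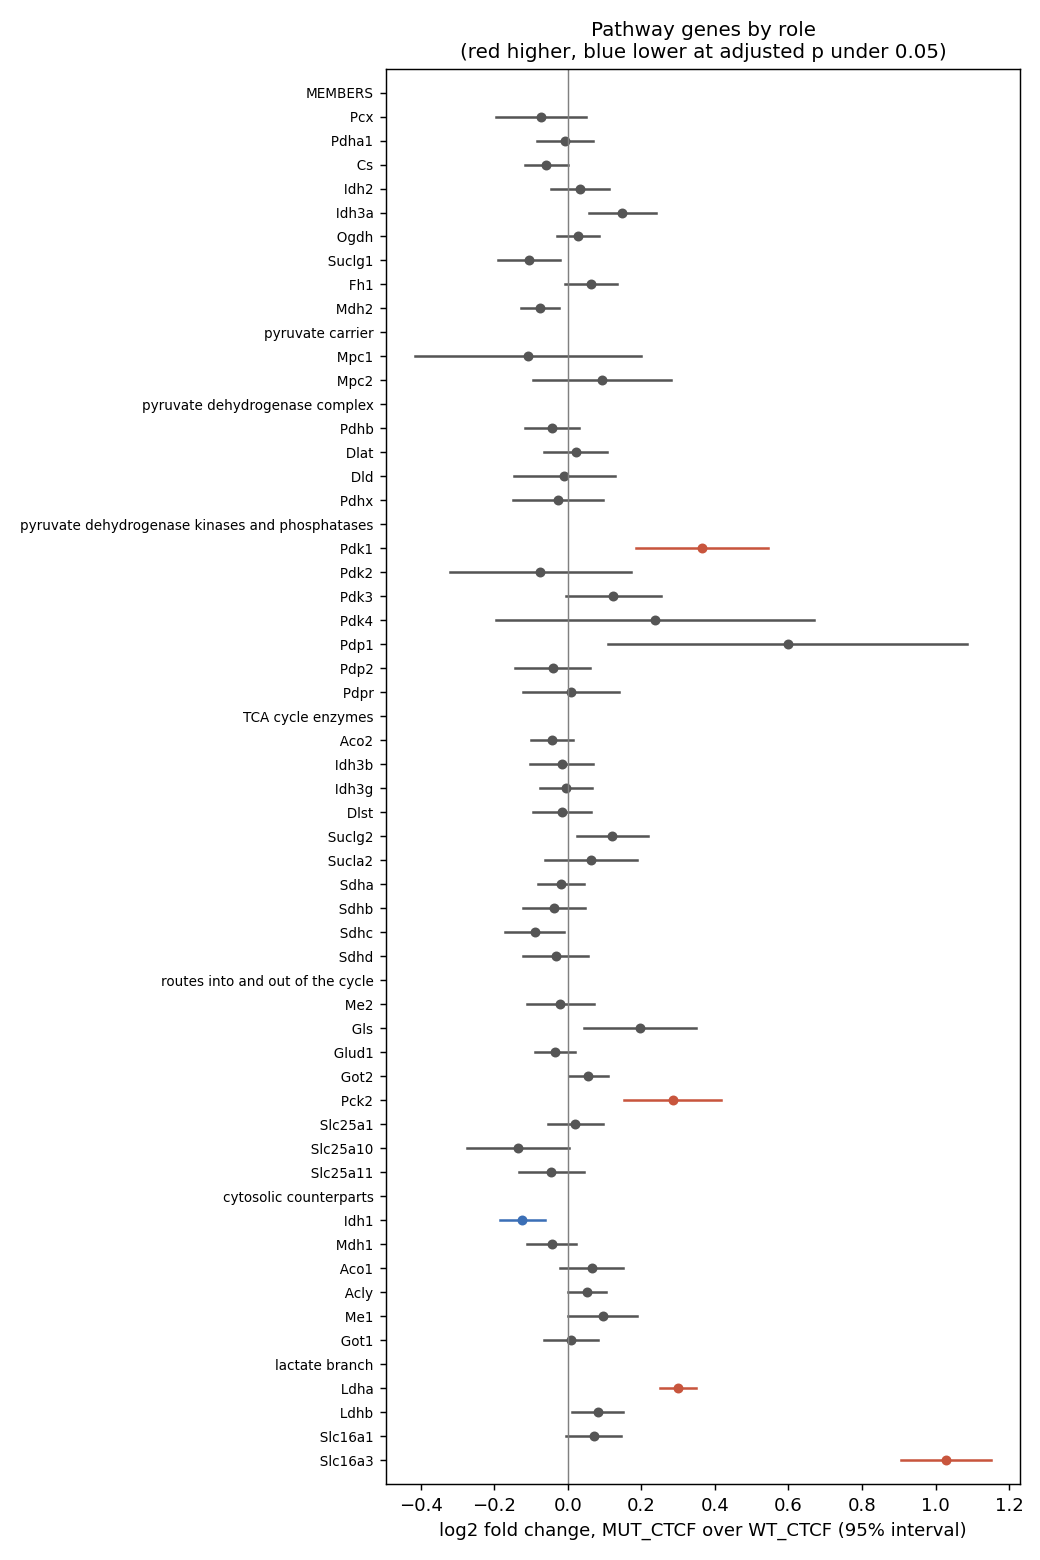
Log2 fold change of MUT_CTCF over WT_CTCF (x axis) with its 95% interval for the 9 genes, at the top, and for the other tested pathway genes by role, with genes called higher in red and lower in blue. Pdk1, Pck2, Ldha and Slc16a3 are the genes in red and Idh1 is the gene in blue.

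Of the lactate branch, 2 of 4 genes were called higher and 0 lower by edgeR's quasi-likelihood test, its exact test and DESeq2, and 3 had an unadjusted p under 0.05 in each. The list was chosen with earlier results of these data known, so these counts describe the genes and do not test the branch. Of all tested genes, 1.56% were called higher and 15.3% had an unadjusted p under 0.05 in the quasi-likelihood test. For those at or above the level of Pcx, 7.57% were called in either direction and 26.3% had an unadjusted p under 0.05. Ldha encodes the lactate dehydrogenase subunit that favours lactate. It had 763.8 and 765.2 CPM in WT_CTCF and 928.9 and 952.4 CPM in MUT_CTCF, without overlap. Ldha rose by 0.30 on the log2 scale (SE 0.024, adjusted p of 5.22e-14 in edgeR's test). Its transcript has 18 matches elsewhere in the genome, the longest of 1511 bases at 94.7% identity, so its count is less certain. Slc16a3, a lactate exporter, had 34.5 and 36.1 CPM in WT_CTCF and 70.6 and 73.4 CPM in MUT_CTCF, and rose by 1.03 (SE 0.061, adjusted p of 1.58e-19 in edgeR's test). Of its merged exon positions 15.6% are shared with Csnk1d on the opposite strand. Both genes were called in all 11 alternatives. The ratio of Ldha to Pdha1 was 5.70 and 5.77 in WT_CTCF and 6.85 and 7.35 in MUT_CTCF. Its exact permutation p was 0.333, the smallest that 2 libraries against 2 can give, so it decides nothing. The differences between these genes and the 9 were not otherwise tested.

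The promoters of Pdha1, Pdk1 and Ldha are shown because they belong to the enzyme that admits pyruvate, a kinase that restrains it and the enzyme that diverts pyruvate. They come from RefSeq (GRCm38.p6), span 300 bases around the transcription start, most of them upstream, and read 5′ to 3′ on the gene's strand. Capitals mark ACGTG or GCGTG, the core that hypoxia-inducible factors bind, on either strand, and adjacent matches can overlap. Pdha1 is at chrX:160138381-160138680, minus strand, Pdk1 at chr2:71872974-71873273, plus strand and Ldha at chr7:46845554-46845853, plus strand, each the first listed start. The other listed start, not shown, has 0 matches for Pdk1 and 2 for Ldha, against 2 and 7 in the promoters shown.
Pdha1: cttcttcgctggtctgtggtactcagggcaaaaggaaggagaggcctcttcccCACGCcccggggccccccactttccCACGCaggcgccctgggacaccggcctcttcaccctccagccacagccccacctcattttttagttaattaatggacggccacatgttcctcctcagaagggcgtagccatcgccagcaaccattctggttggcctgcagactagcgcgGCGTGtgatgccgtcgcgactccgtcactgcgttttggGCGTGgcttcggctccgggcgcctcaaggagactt
Pdk1: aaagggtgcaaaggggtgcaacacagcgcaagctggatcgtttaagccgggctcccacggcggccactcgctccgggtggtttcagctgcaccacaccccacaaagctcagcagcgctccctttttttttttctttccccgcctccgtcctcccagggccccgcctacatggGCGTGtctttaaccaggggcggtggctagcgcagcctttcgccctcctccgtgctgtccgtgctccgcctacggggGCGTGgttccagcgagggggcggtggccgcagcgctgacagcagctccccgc
Ldha: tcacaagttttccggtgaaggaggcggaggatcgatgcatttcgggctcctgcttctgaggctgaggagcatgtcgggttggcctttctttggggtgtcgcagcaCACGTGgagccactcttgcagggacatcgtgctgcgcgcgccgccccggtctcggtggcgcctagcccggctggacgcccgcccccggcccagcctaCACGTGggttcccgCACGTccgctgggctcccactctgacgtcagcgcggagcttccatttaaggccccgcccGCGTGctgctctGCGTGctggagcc
The promoter table held 14 promoters for 8 of the 9 genes, with no entry for Idh3a, and 6 of the 14 are neighbouring starts of Ogdh. Counted by gene, this core was in at least 1 promoter of 7 of the 8, against 46.7% of 27025 genes (43.8% of 32851 promoters). The GCGCATGC stretch of the NRF1 motif was in 1 of the 8, Ogdh, as a single stretch within 2 overlapping promoters, against 3.05% of genes (2.71% of promoters). The TCAAGGTCA motif of estrogen related receptors was in 0 of the 8, against 0.466% of genes (0.423% of promoters). A match is a description of these letters only.

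Of the 12 regulators of mitochondrial genes on the list, 10 were tested, with 0 called higher and 1 lower in edgeR's quasi-likelihood and exact tests, and 2 had an unadjusted p under 0.05 in each. DESeq2 called 0 and gave no adjusted p for 2 of them. Of all tested genes, 1.61% were called lower and 15.3% had an unadjusted p under 0.05 in the quasi-likelihood test. For those at or above the level of Pcx, 7.57% were called in either direction and 26.3% had an unadjusted p under 0.05. Myc, a transcription factor that drives metabolic genes, had 19.1 and 20.6 CPM in WT_CTCF and 16.0 and 14.0 CPM in MUT_CTCF. Myc fell by 0.41 on the log2 scale (SE 0.101, adjusted p of 0.0115 in edgeR's test), and it was not called without WT_CTCF replicate 2 (0.144), MUT_CTCF replicate 1 (0.311) or MUT_CTCF replicate 2 (0.428), or with no filter (0.249), at log2 fold changes of -0.50 to -0.32 over the alternatives. Hif1a had a log2 fold change of -0.16 (adjusted p of 0.133 in edgeR's test). Nrf1 had 100.2 and 99.5 CPM in WT_CTCF and 99.7 and 99.6 CPM in MUT_CTCF.

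The share of counts from the mitochondrial genome was 1.75% and 1.73% in WT_CTCF and 1.88% and 1.77% in MUT_CTCF. Summed levels of the 12 mESC markers were 7241 and 7266 CPM in WT_CTCF and 7222 and 7282 CPM in MUT_CTCF, with Sox2 called higher (log2 fold change 0.095) and Utf1 lower (-0.21). The 8 fibroblast markers summed to 21.8 and 22.3 CPM in WT_CTCF and 23.7 and 25.3 CPM in MUT_CTCF, with Thy1 the most abundant (14.6 and 16.1 CPM in WT_CTCF, 17.0 and 18.3 CPM in MUT_CTCF) and Lum at 0 counts, which allows up to 0.0740 CPM in MUT_CTCF replicate 2 by counting error alone, the highest of the 4 limits. Of these markers 4 were tested, with Thy1 and Col1a1 above 0 on the log2 scale (0.20 and 0.15), Col1a2 and Col3a1 below (-0.19 and -1.52) and a median of -0.022. Both edgeR tests called 0 of them, with an unadjusted p under 0.05 for 1 in the quasi-likelihood test and 2 in the exact test, and DESeq2 gave no adjusted p for these 4. Primitive endoderm markers summed to 15.0 and 15.5 CPM in WT_CTCF and 16.2 and 20.7 CPM in MUT_CTCF, with Dab2 the most abundant on the mean of the 4 libraries. Of these markers 5 were tested, 4 with a log2 fold change above 0 and a median of 0.37, and 0 were called by either edgeR test while 2 had an unadjusted p under 0.05 in each. DESeq2 gave no adjusted p for these 5. Gata6, with 57 and 50 counts in WT_CTCF and 99 and 108 counts in MUT_CTCF, had a log2 fold change of 0.95 (adjusted p of 0.0733 in edgeR's test), and Dab2 one of -0.21. Trophoblast markers summed to 14.6 and 13.5 CPM in WT_CTCF and 10.9 and 12.4 CPM in MUT_CTCF, with Cdx2 the most abundant. Cdx2 fell by 0.97 on the log2 scale and was the 1 gene of the 6 tested that was called, while Ascl2, at 1.72 and 1.43 CPM in WT_CTCF and 2.65 and 2.91 CPM in MUT_CTCF, had a log2 fold change of 0.82 (adjusted p of 0.107 in edgeR's test). Mesendoderm markers summed to 22.8 and 24.1 CPM in WT_CTCF and 22.2 and 21.4 CPM in MUT_CTCF, with Gsc the most abundant. Neuroectoderm markers summed to 341.2 and 343.0 CPM in WT_CTCF and 298.5 and 304.0 CPM in MUT_CTCF, nearly all from Tubb3, which fell by 0.19. Of the other 3 tested Otx1 was at -0.13, Pax6 at 0.45 and Zic1 at 2.12 on few counts (2 and 4 in WT_CTCF, 17 and 10 in MUT_CTCF), and none of the 3 was called. By edgeR's adjusted p, Sox2 (0.200 to 0.387) and Utf1 (0.0543 to 0.381) were not called without any 1 of the 4 libraries, and Sox2 was not called by edgeR's exact test (0.103). Cdx2 (0.311 and 0.225) and Tubb3 (0.200 and 0.171) were not called without MUT_CTCF replicate 1 or replicate 2, and none of these 4 was called with no filter, at 0.0701 to 0.269. Over the alternatives the log2 fold change was 0.082 to 0.11 for Sox2, -0.26 to -0.17 for Utf1, -1.12 to -0.84 for Cdx2 and -0.20 to -0.17 for Tubb3. Over all tested genes, 3.17% were called in either direction by edgeR's quasi-likelihood test, and 15.3% had an unadjusted p under 0.05. The part of the cell type markers in the results on the 9 genes was not tested. In bulk libraries fewer cells of a type and less RNA per cell cannot be told apart.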

How the data were processed

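RNA-seq counts of 2 WT_CTCF and 2 MUT_CTCF libraries were used. The authors trimmed reads with Trim Galore (0.4.4), mapped them to mm9 using STAR and deposited unnormalized counts of uniquely mapped reads per gene from HTSeq (0.9.1). A deposited table of the authors' own edgeR comparison was not used. Gene names, positions and exon lengths came from GENCODE M1 (mm9), which named 37205 of 37620 identifiers. Of 107 listed genes 106 were matched, 3 by an older symbol. Genes were kept by filterByExpr (minimum count 10), which left 16264, and tested with edgeR 4.0.16 (R 4.3.3) by glmQLFit and glmQLFTest on group, with TMM scaling and Benjamini-Hochberg adjustment over all tested genes. The standard error is the fold change's size divided by the root of F. Intervals and limits on counts cover 95% and 3 counts. Alternatives included DESeq2 1.42.0. The fits were tested on simulated data. The members and lists were chosen with earlier results of these data known. Named were the 9 genes, each listed gene with an adjusted p under 0.05, and Pdk1, Ldha, Idh3b and Idh3g whatever their values; other listed genes given by value were picked after their values were seen. Ratios between genes and levels per longest annotated coding transcript were added after seeing the data.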

Additional observations from a re-analysis of the deposited data

How the results depend on the processing

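The log2 fold changes of Idh3a, Fh1, Ogdh, Cs, Pcx, Mdh2 and Suclg1 kept their sign in all 11 alternatives. Leaving out 1 library moved Suclg1 between -0.16 and -0.054, Pcx between -0.12 and -0.021 and Cs between -0.080 and -0.039. That of Pdha1 was 0.0050 with library size only, and between -0.041 and 0.024 when 1 library was left out. Leaving out 1 library gave -0.012 to 0.079 for Idh2, -0.064 to 0.027 for Idh3b and -0.030 to 0.018 for Idh3g, and Idh3g was 0.0070 with library size only. The members' median was 0.0050 with library size only and -0.029 to 0.019 when 1 library was left out. With library size only, with at least 10 reads in every library and with the replicate block, 1 member was called higher. Counts over all genes were 152 lower with library size only, 26 higher and 3 lower with no filter, 129 higher with DESeq2, and 154 higher and 58 lower by an unadjusted p under 0.05 with fold change above 2. Leaving out 1 library gave 6 to 142 higher and 0 to 102 lower, with the lone library assumed to vary like the other group. Other pathway genes were 0 higher and 0 lower with no filter and by the study's criterion, and 0 to 1 higher and 0 lower when 1 library was left out. The cause was not tested. Nothing pairs the replicate numbers (correlation of same-numbered deviations -0.019), and the replicate block called 326 genes higher and 372 lower. DESeq2 gave no adjusted p for Myc and Cdx2.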
